A study of Mus musculus with 4 samples.

Results

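De-differentiated fat (DFAT) cells grown from inguinal white adipose tissue (iWAT) were compared with DFAT cells grown from epididymal white adipose tissue (eWAT) across all genes. Depot transcription factors and NF-κB genes were counted with the rest but are not described, apart from *Saa3* where its depot ratio turned between cell types. The comparison rests on 1 single-cell library of each, iWAT_DFAT with 7629 cells and eWAT_DFAT with 6464 cells, which is 14093 of the 28262 cells in the 4 cultured libraries of the study. A cell was a barcode with 5000 to 75000 unique molecular identifiers (UMIs, 1 per captured RNA molecule), 200 to 7500 genes and under 10% of its UMIs in mitochondrially encoded genes. Both cultures came from wild-type male C57BL/6J mice on chow diet. Floating adipocytes were released by collagenase, held against the upper surface of a filled, inverted flask (ceiling culture), where they lose their lipid and spread, and live cells were sorted with 7-AAD before droplet capture. The age of these mice, whether animals were pooled and how many cultures entered each library are not given in the sources used here.

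White fat lies in a subcutaneous compartment, of which the inguinal pad is the usual example in mice, and in a visceral compartment, of which the epididymal pad is the usual example in males. An adipocyte that loses its lipid droplet in culture takes on a spindle shape, divides and makes matrix as a fibroblast does. The stromal cells that lie beside adipocytes in the tissue, among them the adipose stem and progenitor cells (ASPCs), can turn toward a fibrous, contractile myofibroblast state or back toward lipid storage, and smooth muscle actin, collagens, proteoglycans and inflammatory secretions are the usual readouts of where they stand.

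UMIs were summed over the cells of a library and expressed as counts per 1000000 UMIs (CPM). With 1 library a side no test between depots was possible, so every value below compares 2 libraries and the 95% intervals cover counting error only. Depot, culture, animals, sort and library cannot be told apart. Levels are given with the iWAT_DFAT library first, and a log2 ratio above 0 means a higher level in iWAT_DFAT. A single value in brackets after a pair of levels is their log2 ratio, and a range in brackets is its 95% interval. Fewer cells carrying an RNA and less RNA per cell cannot be told apart in a sum, so the spread over cells is given where a result turns on it.

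The libraries were of like depth, with 183664704 and 185600987 UMIs in cells and medians of 22111 and 27425 UMIs a cell, and 19 cell barcodes were shared between them. The share of UMIs in mitochondrially encoded genes was 3.18% in iWAT_DFAT and 2.03% in eWAT_DFAT. All 11 stromal marker genes were above 5 CPM on average, and 9 of them were at least 2-fold higher in iWAT_DFAT. Of 10 adipocyte markers, *Lep*, which mature adipocytes secrete, had 0 UMIs in both libraries, which allows up to 3 a library, and the list summed to 32.8 and 117 CPM. Cells with 3 or more markers of another type made up 0.957% of iWAT_DFAT (26 endothelial, 0 mesothelial, 30 immune and 18 glial by marker) and 4.16% of eWAT_DFAT (160, 72, 39 and 2), with some cells counted under more than 1 type. Summed over their lists, endothelial markers were at 23.9 and 53.4 CPM, mesothelial markers at 5.87 and 15.9 CPM, immune markers at 29.9 and 23.8 CPM, glial markers at 7.84 and 4.06 CPM and pericyte markers at 31.2 and 70.8 CPM, of which *Des* was 2.47 and 45.7 CPM. Of the immune list, *Ptprc*, which all leukocytes carry, was at 0.0109 and 0.0808 CPM (-2.89) and *Csf1r* at 18.4 and 13.1 CPM (0.49), *Pecam1* of endothelium at 2.67 and 6.83 CPM (-1.35) and *Upk3b* of mesothelium at 0.0109 and 1.22 CPM (-6.81). Cells with 5 or more UMIs of S phase and mitosis genes after thinning to 5000 UMIs made up 76.7% of iWAT_DFAT and 88.0% of eWAT_DFAT.

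Of 32285 genes, 10012 were at a mean of 5 CPM or more over both libraries. Among these, 753 genes (7.52%) were at least 2-fold higher in iWAT_DFAT and 334 (3.34%) were at least 2-fold higher in eWAT_DFAT, which together is 10.9% of the genes considered and the background against which each gene list is read below. Ratios of 4-fold or more were reached by 180 genes (1.80%) on the iWAT side and 111 (1.11%) on the eWAT side, and ratios of 8-fold or more by 69 (0.689%) and 44 (0.439%). Across these genes the log2 ratio had a median of 0.09, with 5th and 95th percentiles of -0.77 and 1.24. The genes past 2-fold on the iWAT side held 9.17% of the UMIs of iWAT_DFAT and 3.09% of those of eWAT_DFAT. Those on the eWAT side held 1.48% and 4.96%. With all cells of 5 or more cycle UMIs left out, the eWAT side grew from 334 to 536 genes and the iWAT side from 753 to 965. With no minimum level 2774 genes were on the iWAT side and 2993 on the eWAT side, so the majority turned.

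Genes of the contractile cytoskeleton of smooth muscle and myofibroblasts lay toward eWAT (a gene is at level at a mean of 5 CPM or more). Of its 46 genes, 41 were at level, 23 were at least 2-fold higher in eWAT_DFAT and 0 were at least 2-fold higher in iWAT_DFAT. The median log2 ratio was -1.21, and -0.91 over the 32 genes at 5 CPM or more in both libraries, since 9 were at level through 1 library alone. Summed over the list the level was 9639.6 CPM in iWAT_DFAT and 22830.3 CPM in eWAT_DFAT. *Tagln*, the actin-binding protein SM22 (ENSMUSG00000032085, chromosome 9, 45929619 to 45936058 in GENCODE M21 on mm10), was at 277 and 3571 CPM, a log2 ratio of -3.69 (-3.70 to -3.68). *Acta2*, smooth muscle α-actin (ENSMUSG00000035783, chromosome 19, 34241090 to 34255590), was at 394 and 2856 CPM, a log2 ratio of -2.86 (-2.87 to -2.85). *Cnn1*, the calponin that restrains myosin on actin filaments (ENSMUSG00000001349, chromosome 9, 22099216 to 22109630), was at 5.07 and 111 CPM, a log2 ratio of -4.45 (-4.55 to -4.36). All 3 were higher in eWAT_DFAT, and *Cnn1* was near the lower level limit in iWAT_DFAT. The kinase that switches smooth muscle myosin on, *Mylk*, was at 9.5 and 152 CPM, a log2 ratio of -4.00 (-4.07 to -3.93). Its light chain substrate *Myl9* was at 56.2 and 402 CPM, a log2 ratio of -2.84 (-2.87 to -2.81), and *Lmod1*, which starts actin filaments in smooth muscle, was at 11.2 and 114 CPM, a log2 ratio of -3.35 (-3.42 to -3.29). *Des*, the muscle intermediate filament protein that pericytes also carry, was at 2.47 and 45.7 CPM, a log2 ratio of -4.21 (-4.35 to -4.08), and the four-and-a-half LIM protein *Fhl1* was at 2.21 and 45 CPM, a log2 ratio of -4.35 (-4.50 to -4.21). The cytoplasmic actins, which every cell carries, differed less, with *Actb* at 4523 and 8412 CPM (-0.90) and *Actg1* at 1972 and 3430 CPM (-0.80). *Vcl*, the vinculin of focal adhesions, was the member furthest the other way, at 389 and 234 CPM (0.73), and the non-muscle myosin *Myh10* was at 46.4 and 44.3 CPM (0.07).

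Serum response factor (SRF) drives many contractile genes through a CArG box, the short sequence it binds, so the stretch from 250 bases before to 50 bases after the start site was read for each gene with a RefSeq promoter in GRCm38.p6. The stretches shown are those of contractile genes that hold a CArG box and were at least 2-fold higher in eWAT_DFAT, followed by *Vcl*, which holds one and went the other way. Both strands were searched, each stretch is written 5′ to 3′ along the strand of its gene, and capitals mark the CArG box.
Myl9 (chr2:156775278-156775337, plus strand): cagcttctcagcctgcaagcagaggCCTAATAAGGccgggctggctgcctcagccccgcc
Fhl1 (chrX:56779556-56779615, plus strand): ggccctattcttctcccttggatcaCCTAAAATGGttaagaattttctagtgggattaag
Acta1 (chr8:123894814-123894873, minus strand): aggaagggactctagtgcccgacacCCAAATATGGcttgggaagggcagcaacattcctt
Ldb3 (chr14:34588682-34588741, minus strand): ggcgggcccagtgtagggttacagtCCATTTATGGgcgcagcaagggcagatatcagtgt
Cnn2 (chr10:79988519-79988578, plus strand): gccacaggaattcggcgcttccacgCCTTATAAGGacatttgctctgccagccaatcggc
Vcl (chr14:20929148-20929205, plus strand): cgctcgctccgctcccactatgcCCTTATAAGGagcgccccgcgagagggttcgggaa
A CArG box lay in 488 of 27025 promoters (1.81%) and in 1.63% of those of the genes considered here. Among the contractile genes with a promoter it lay in 8 of 34 (23.5%), in 5 of the 17 that were at least 2-fold higher in eWAT_DFAT (29.4%) and in 3 of the 17 under 2-fold (17.6%). The skeletal actin gene *Acta1* was at 3.02 and 32.6 CPM (-3.43), the Z-disc protein gene *Ldb3* at 4.17 and 14.7 CPM (-1.82) and *Cnn2*, the calponin of non-muscle cells, at 180.0 and 366 CPM (-1.02). These letters are a description of the windows, and their part in the levels was not tested.

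Cells were thinned to 5000 UMIs each to see how the contractile RNA lay over them. An iWAT_DFAT cell held a median of 43 contractile UMIs with 27 and 69 at the 10th and 90th percentiles, and an eWAT_DFAT cell held 102, with 51 and 188. Of eWAT_DFAT cells, 93.8% lay above the iWAT_DFAT median, while 1.87% of iWAT_DFAT cells lay above the eWAT_DFAT median. A *Tagln* UMI was found in 28.7% of iWAT_DFAT and 87.7% of eWAT_DFAT cells, against 19.2% of the 26 and 76.2% of the 160 endothelial-marker cells of the same libraries, which should hold little of it, and the part of free RNA in these shares was not tested. The tenth of cells with the most *Tagln* held 75.4% of its UMIs in iWAT_DFAT and 32.2% in eWAT_DFAT. In iWAT_DFAT, *Dcn* was found in 89.0% of the cells with *Tagln* and 93.4% of those without, and in eWAT_DFAT in 48.6% and 40.8%.

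Targets of YAP and TEAD, which respond to stretch and spreading, and the quick serum targets of SRF split. Of 23 genes at level, 6 were at least 2-fold higher in eWAT_DFAT, 3 in iWAT_DFAT and 14 were under 2-fold, with a median log2 ratio of -0.41. Summed over the list the levels were close, at 3591 and 3815 CPM. *Ankrd1* was at 10.4 and 213 CPM, a log2 ratio of -4.35 (-4.42 to -4.29), and the matricellular factor *Ccn2* at 34.4 and 242 CPM, a log2 ratio of -2.82 (-2.85 to -2.78). Both are textbook YAP targets, both were low in iWAT_DFAT, and they had the 2 largest ratios of the list. The 3 genes on the iWAT side were the early growth response factors *Egr1* at 826 and 168 CPM (2.30), *Egr2* at 72.7 and 24.2 CPM (1.59) and *Egr3* at 95.6 and 14.4 CPM (2.73).

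**Figure D1:**
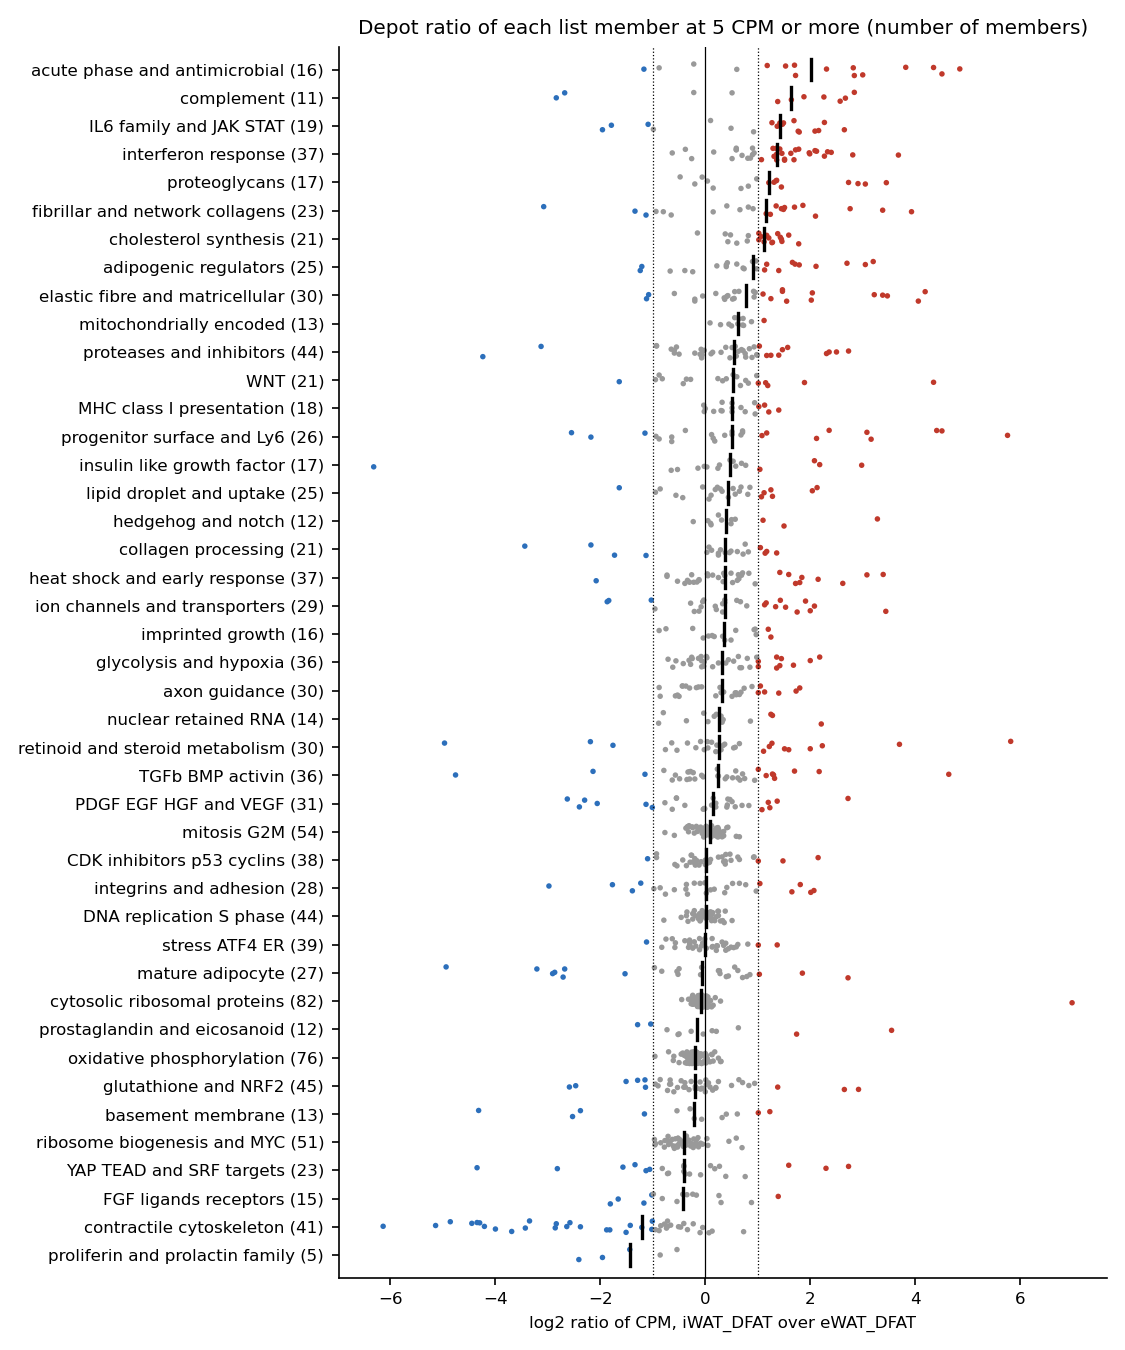
Each row is 1 of 43 gene lists, each point a member at 5 CPM or more by its log2 ratio of iWAT_DFAT over eWAT_DFAT, with the number of members in brackets and the median as a black bar. Red and blue points lie at least 2-fold toward iWAT_DFAT and eWAT_DFAT, and the contractile row lies furthest left among the drawn rows of more than 5 genes while the acute phase, complement and interferon rows lie to the right.

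Interstitial matrix genes lay on the other side. Of 36 collagen genes 23 were at level, 12 were at least 2-fold higher in iWAT_DFAT and 3 in eWAT_DFAT, with a median log2 ratio of 1.16, or 0.91 over the 19 at level in both libraries. Their summed level was 7766 CPM in iWAT_DFAT and 4359.5 CPM in eWAT_DFAT. The fibril-forming chains of types I and III were higher in iWAT_DFAT, *Col1a1* at 1546 and 693 CPM, a log2 ratio of 1.16 (1.15 to 1.17), *Col1a2* at 2298 and 902 CPM, a log2 ratio of 1.35 (1.34 to 1.36) and *Col3a1* at 1147 and 315 CPM, a log2 ratio of 1.86 (1.85 to 1.88). The microfibril collagens *Col6a1* and *Col6a2* were at 292 and 104 CPM (1.49) and 160.0 and 67.5 CPM (1.24). The largest ratio belonged to *Col24a1*, a minor fibrillar collagen (ENSMUSG00000028197, chromosome 3, 145292472 to 145552011), at 139 and 9.12 CPM, a log2 ratio of 3.93 (3.86 to 4.00), and the transmembrane collagen *Col23a1* was at 23 and 2.2 CPM (3.38). The type IV chains that build the basement membrane sheet went the other way or under 2-fold, *Col4a6* at 1.5 and 12.7 CPM, a log2 ratio of -3.08 (-3.26 to -2.90), *Col4a1* at 365 and 573 CPM (-0.65) and *Col4a2* at 205 and 395 CPM (-0.94). The other 2 collagens at least 2-fold higher in eWAT_DFAT, *Col8a1* of short-chain networks and *Col15a1* of basement membrane zones, were at 40.6 and 103 CPM (-1.34) and 28.8 and 62.9 CPM (-1.13).

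Proteoglycans, which space and lubricate collagen fibrils, showed 9 of 17 genes at least 2-fold higher in iWAT_DFAT and 0 in eWAT_DFAT, a median log2 ratio of 1.21 (0.98 over the 15 at level in both), and summed levels of 5348 and 2636 CPM. *Dcn*, decorin, which coats collagen fibrils (ENSMUSG00000019929, chromosome 10, 97479609 to 97518143), was at 1687 and 255 CPM, a log2 ratio of 2.73 (2.71 to 2.74). *Prg4*, the lubricin of joint surfaces, was at 36.6 and 3.36 CPM, a log2 ratio of 3.45 (3.33 to 3.57). *Prelp*, which ties basement membranes to fibrils, was at 60.1 and 7.98 CPM (2.91), and the hyaluronan synthase *Has1* was at 14.9 and 1.8 CPM (3.05). Biglycan, the close relative of decorin, was nearly level, with *Bgn* at 973 and 1013 CPM, a log2 ratio of -0.06 (-0.07 to -0.05). A *Dcn* UMI was found in 92.1% of thinned iWAT_DFAT and 47.6% of thinned eWAT_DFAT cells, against 53.8% and 13.8% of endothelial-marker cells, so the eWAT_DFAT library held a large set of cells with no *Dcn* UMI at that depth. Proteoglycan UMIs per thinned cell had medians of 26 and 12, and 91.7% of iWAT_DFAT cells lay above the eWAT_DFAT median.

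Of 30 elastic fiber and matricellular genes, 12 were at least 2-fold higher in iWAT_DFAT and 2 in eWAT_DFAT, with a median log2 ratio of 0.78. The median was 0.56 over the 26 at level in both libraries, since 4 were at level through 1 library alone. Summed over the list the level was slightly higher in eWAT_DFAT, at 7494 and 7989.8 CPM. *Tgfbi*, a TGF-β-induced adhesion protein, was at 29.5 and 1.61 CPM, a log2 ratio of 4.19 (4.02 to 4.37). *Abi3bp*, a matrix protein that binds cells, was at 58.7 and 3.52 CPM (4.06), *Ccn5* at 187 and 16.9 CPM (3.47) and the microfibril protein *Mfap2* at 70.3 and 6.76 CPM (3.38). These 4 genes were low in eWAT_DFAT, between 1.61 and 16.9 CPM. The 2 genes on the eWAT side were abundant in both libraries, *Spp1*, osteopontin, at 1950 and 4251 CPM, a log2 ratio of -1.12 (-1.13 to -1.12) and *Ltbp2*, which binds to elastic microfibrils, at 145 and 306 CPM (-1.08). Fibronectin, *Fn1*, was at 606 and 910.0 CPM (-0.59). *Mgp*, matrix Gla protein, which keeps soft tissue from calcifying and is not in that list, was at 24.2 and 221 CPM, a log2 ratio of -3.19 (-3.24 to -3.15).

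Of 13 basement membrane genes, 4 were at least 2-fold higher in eWAT_DFAT and 2 in iWAT_DFAT. The 4 on the eWAT side were all at level through eWAT_DFAT alone. *Npnt*, nephronectin, a ligand of integrin α8β1, was at 3.07 and 61.5 CPM, a log2 ratio of -4.32 (-4.45 to -4.20), and *Tinagl1* and *Smoc2* were at 4.31 and 24.8 CPM (-2.53) and 3.95 and 20.6 CPM (-2.38). The laminin chains *Lamb2* and *Lama4* were the 2 on the iWAT side, at 36.3 and 15.5 CPM (1.23) and 145 and 72.1 CPM (1.01). The list median was -0.21 over the 13 genes and 0.32 over the 9 at level in both libraries. Collagen processing was split, 4 genes a side of 21, of which *Tll1* was at level through eWAT_DFAT alone. *Bmp1* and *Tll1* encode related proteinases that trim procollagen, and the pair lay on opposite sides, *Bmp1* at 174 and 77.3 CPM (1.17) and *Tll1* at 4.44 and 48.2 CPM, a log2 ratio of -3.44 (-3.55 to -3.34). *Pcolce2*, which speeds that trimming, was at 12 and 54.5 CPM (-2.18).

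Proteases and their inhibitors had 10 of 44 genes at least 2-fold higher in iWAT_DFAT and 2 in eWAT_DFAT, with a median of 0.54. The median was 0.51 over the 39 at level in both libraries. The other 5 were at level through 1 library alone, among them *Mmp8*, *Mmp10*, *Mmp9* and *Adam33*. The 2 on the eWAT side were the neutrophil collagenase *Mmp8* at 1.06 and 19.9 CPM, a log2 ratio of -4.24 (-4.45 to -4.03) and the stromelysin *Mmp10* at 4.24 and 37.1 CPM (-3.13). The gelatinase *Mmp9* lay on the other side at 32.6 and 4.92 CPM, a log2 ratio of 2.73 (2.63 to 2.83), with the sheddase *Adam33* at 18.5 and 3.26 CPM (2.50). *Timp1*, the abundant inhibitor of metalloproteinases, was at 2766 and 5287 CPM, a log2 ratio of -0.93 (-0.94 to -0.93), just under 2-fold. A pair of serpin genes outside the list counted here had large and opposite ratios, *Serpina3n* at 80.3 and 2.79 CPM (4.85) and *Serpinb6b* at 2.13 and 65.3 CPM (-4.94), and both belong to families of closely similar copies between which reads may be split.

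Surface genes of fibroblasts and early progenitors included some of the largest ratios on the iWAT side. Of 26 genes at level 9 were at least 2-fold higher in iWAT_DFAT and 3 in eWAT_DFAT, with a median of 0.51, or 0.37 over the 17 at level in both libraries, since 9 were at level through 1 library alone. *Ly6a*, the Sca-1 antigen of progenitors (ENSMUSG00000075602, chromosome 15, 74994877 to 74998031), was at 821 and 38.6 CPM, a log2 ratio of 4.41 (4.38 to 4.45), and its neighbor *Ly6c1* was at 94.5 and 1.75 CPM, a log2 ratio of 5.76 (5.60 to 5.92). Sequence is shared between Ly6 genes, so their separate levels are uncertain. *Pi16*, a marker of the fibroblasts around vessels and in fascia, was at 24.6 and 1.08 CPM, a log2 ratio of 4.51 (4.31 to 4.72). *Opcml*, a membrane-anchored adhesion protein, was at 25.4 and 2.85 CPM (3.16), and *Tnfaip6*, which links hyaluronan, was at 222 and 26.3 CPM (3.08). *Cd34* and *Thy1*, used to sort adipose progenitors, were at 21.7 and 5.19 CPM (2.07) and 83.9 and 20.9 CPM (2.01). The 3 on the eWAT side were the matrix gene *Vit* at 2.41 and 14.1 CPM (-2.55), *Pcolce2* and the TGF-β co-receptor *Eng* at 21.2 and 46.9 CPM (-1.15). Among 28 integrin and adhesion genes 5 were at least 2-fold higher in iWAT_DFAT and 4 in eWAT_DFAT. Of the latter, the cell adhesion genes *Cadm4*, *Nrcam* and *Ncam1* were at 1.91 and 15.1 CPM (-2.98), 19.6 and 66.8 CPM (-1.77) and 42.6 and 112 CPM (-1.39).

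A *Ly6a* UMI was found in 87.2% of thinned iWAT_DFAT cells and 14.1% of thinned eWAT_DFAT cells. The share in endothelial-marker cells, which are known to carry Sca-1 themselves, was 76.9% and 35%, so the eWAT_DFAT share lay below that of its endothelial-marker cells. In iWAT_DFAT *Dcn* was found in 93.4% of cells with *Ly6a* and 83.5% of cells without, and in eWAT_DFAT in 63.0% and 45.1%. Summed over the 11 stromal markers, thinned cells held a median of 38 UMIs in iWAT_DFAT and 9 in eWAT_DFAT, and 94.4% of iWAT_DFAT cells lay above the eWAT_DFAT median. *Col1a1*, *Col1a2*, *Col3a1*, *Dcn* and *Ly6a*, given above, are among the 11 and held most of their summed 7978 and 2424 CPM.

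**Figure D2:**
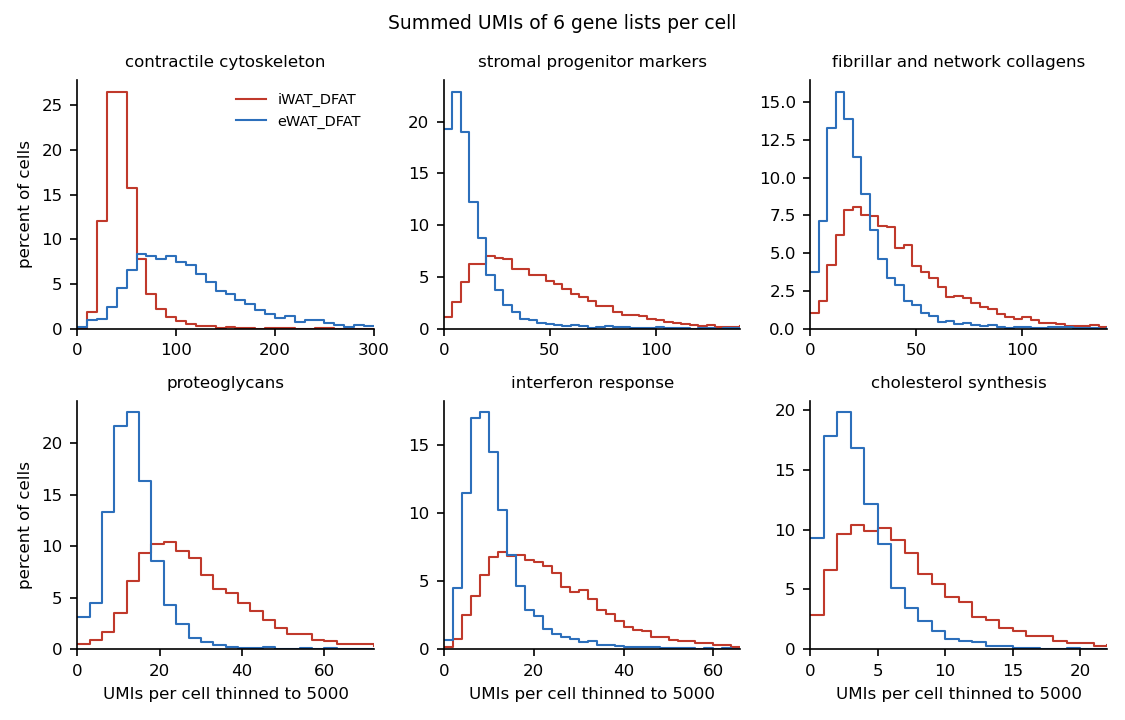
For 6 gene lists, the percent of cells (vertical axis) is drawn against the summed UMIs of the list in each cell after thinning to 5000 UMIs, red for iWAT_DFAT and blue for eWAT_DFAT. The contractile curves are centered at medians of 43 and 102 UMIs and the stromal marker curves at 38 and 9, and 1.87% of iWAT_DFAT cells lie above the eWAT_DFAT contractile median.

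Growth factor and morphogen genes are given family by family. In the insulin-like growth factor system 4 of 17 genes were at least 2-fold higher in iWAT_DFAT and 1 in eWAT_DFAT. *Igfbp3*, which carries IGF and blocks its access to the receptor, was at 178 and 22.6 CPM, a log2 ratio of 2.98 (2.93 to 3.03). *Stc1*, stanniocalcin, which inhibits the protease that frees IGF from its carriers, was at 36.9 and 8.73 CPM (2.08), and the RNA-binding protein gene *Igf2bp3* was at 29 and 6.4 CPM (2.18). *Igfbp2*, another IGF carrier, was the single gene on the eWAT side and had the largest ratio of the list, at 0.278 and 22.2 CPM, a log2 ratio of -6.32 (-6.75 to -5.92). It was also the 1 gene of the 17 at level through 1 library alone. *Igf1* itself was at 15 and 21.7 CPM (-0.53).

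Among the TGF-β, BMP and activin genes 8 of 36 were at least 2-fold higher in iWAT_DFAT and 3 in eWAT_DFAT. Of the 36, 2 were at level through 1 library alone, *Gdf10* through iWAT_DFAT and *Grem1* through eWAT_DFAT. The median over the other 34 was 0.24. The ligands lay on both sides, *Gdf10* (BMP3B) at 29.3 and 1.17 CPM, a log2 ratio of 4.64 (4.45 to 4.84) and *Inhba*, the activin A subunit, at 105 and 465 CPM, a log2 ratio of -2.14 (-2.17 to -2.12). The secreted BMP trap *Grem1* was at 1.63 and 44.3 CPM (-4.76). The co-receptor *Tgfbr3*, betaglycan, was at 521 and 161 CPM, a log2 ratio of 1.70 (1.68 to 1.72). Of 21 WNT genes 5 were at least 2-fold higher in iWAT_DFAT and 1 in eWAT_DFAT. The secreted WNT antagonists were among them, *Sfrp2* at 148 and 7.28 CPM, a log2 ratio of 4.35 (4.27 to 4.43) and *Sfrp1* at 91.4 and 24.7 CPM (1.89), and the transcription factor *Tcf7l2* was at 128 and 57.8 CPM (1.15). The receptor *Ror1* was the single gene on the eWAT side, at 19.5 and 60.7 CPM, a log2 ratio of -1.64 (-1.70 to -1.59), while its ligand *Wnt5a* was at 8.14 and 15.7 CPM (-0.95).

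The hedgehog co-receptor *Gas1* was at 367 and 37.9 CPM, a log2 ratio of 3.28 (3.24 to 3.31), the Notch target *Hes1* at 191 and 67.4 CPM (1.50) and the hedgehog transcription factor *Gli2* at 14.1 and 6.59 CPM (1.10), which are the 3 of 12 hedgehog and Notch genes past 2-fold, all on the iWAT side. Of 15 FGF genes 4 were at least 2-fold higher in eWAT_DFAT and 1 in iWAT_DFAT, and the median was -0.43. *Fgfr1*, the main FGF receptor of mesenchyme, was the one on the iWAT side at 256 and 97.5 CPM, a log2 ratio of 1.39 (1.37 to 1.42). The ligand *Fgf10* was at 15.2 and 34.2 CPM (-1.17), and *Etv4* and *Spry4*, which FGF signaling induces, were at 5.8 and 18.3 CPM (-1.66) and 4.73 and 16.5 CPM (-1.81).

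Of 31 PDGF, EGF, HGF and VEGF genes, 5 and 6 were at least 2-fold higher in iWAT_DFAT and eWAT_DFAT. Of the 31, 3 were at level through eWAT_DFAT alone, *Btc*, *Flt1* and *Angpt2*. *Vegfd*, a ligand for the lymphatic receptor VEGFR3, was at 261 and 39.6 CPM, a log2 ratio of 2.72 (2.69 to 2.76). The EGF receptor ligands *Areg* and *Btc* lay on the eWAT side at 5.22 and 25.7 CPM (-2.30) and 2.43 and 12.8 CPM (-2.40). So did *Flt1* at 3.08 and 19.1 CPM (-2.63) and *Angpt2* at 2.59 and 10.8 CPM (-2.06), both known in endothelium, whose marker *Emcn* was at 1.25 and 12.3 CPM (-3.30); the part of endothelial-marker cells in these 2 genes was not tested. In the axon guidance list 6 of 30 genes were at least 2-fold higher in iWAT_DFAT and 0 in eWAT_DFAT, and 12 passed 2-fold in either library once cells with 5 or more cycle UMIs were left out. *Slit3* and *Slit2*, ligands of ROBO receptors, were at 2149 and 618 CPM, a log2 ratio of 1.80 (1.79 to 1.81) and 707 and 323 CPM (1.13), and the ephrin receptor *Epha4* was at 24.3 and 7.33 CPM (1.73). Outside these lists, *Ackr3*, a receptor that clears the chemokine CXCL12, was at 77.9 and 2.32 CPM, a log2 ratio of 5.07 (4.93 to 5.21). The neural adhesion gene *Chl1*, also outside them, was at 91.1 and 1.98 CPM, a log2 ratio of 5.52 (5.37 to 5.67).

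Retinoid and steroid genes were also split, 9 of 30 at least 2-fold higher in iWAT_DFAT and 3 in eWAT_DFAT. Of the 30, 4 were at level through 1 library alone, among them *Crabp1*, *Aldh1a2* and *Hsd11b1*. The median was 0.26, or 0.32 over the 26 at level in both. *Crabp1*, which binds retinoic acid in the cytoplasm (ENSMUSG00000032291, chromosome 9, 54764748 to 54773110), was at 88.3 and 1.56 CPM, a log2 ratio of 5.82 (5.65 to 5.99). The receptor genes *Rarg* and *Rxra* and the retinoic acid hydroxylase *Cyp26b1* lay on the iWAT side as well, at 42.2 and 14.8 CPM (1.51), 25.7 and 11 CPM (1.22) and 55 and 13.8 CPM (2.00). The enzymes that make retinoic acid from retinaldehyde lay on the eWAT side, *Aldh1a2* at 0.419 and 13.2 CPM, a log2 ratio of -4.97 (-5.32 to -4.65) and *Aldh1a3* at 9.56 and 43.5 CPM, a log2 ratio of -2.19 (-2.26 to -2.11), while *Aldh1a1* was at 76.6 and 60.6 CPM (0.34). *Hsd11b1*, which regenerates active glucocorticoid, was at 3.63 and 12.3 CPM (-1.76), and the oxysterol hydroxylase *Cyp7b1* at 248 and 19.1 CPM, a log2 ratio of 3.70 (3.65 to 3.75). *Rarres2*, the adipokine chemerin, was at 929 and 198 CPM, a log2 ratio of 2.23 (2.21 to 2.25). A *Crabp1* UMI was found in 20.9% of thinned iWAT_DFAT cells and 0.712% of thinned eWAT_DFAT cells, against 11.5% and 0 of the endothelial-marker cells. Of the prostaglandin genes the receptor *Ptgfr* was at 19.3 and 1.65 CPM, a log2 ratio of 3.55 (3.38 to 3.72) and the transporter *Slco2a1* at 315 and 94.4 CPM (1.74), while *Ptger4*, a receptor for prostaglandin E2, was at 6.3 and 15.4 CPM (-1.29).

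**Figure D3:**
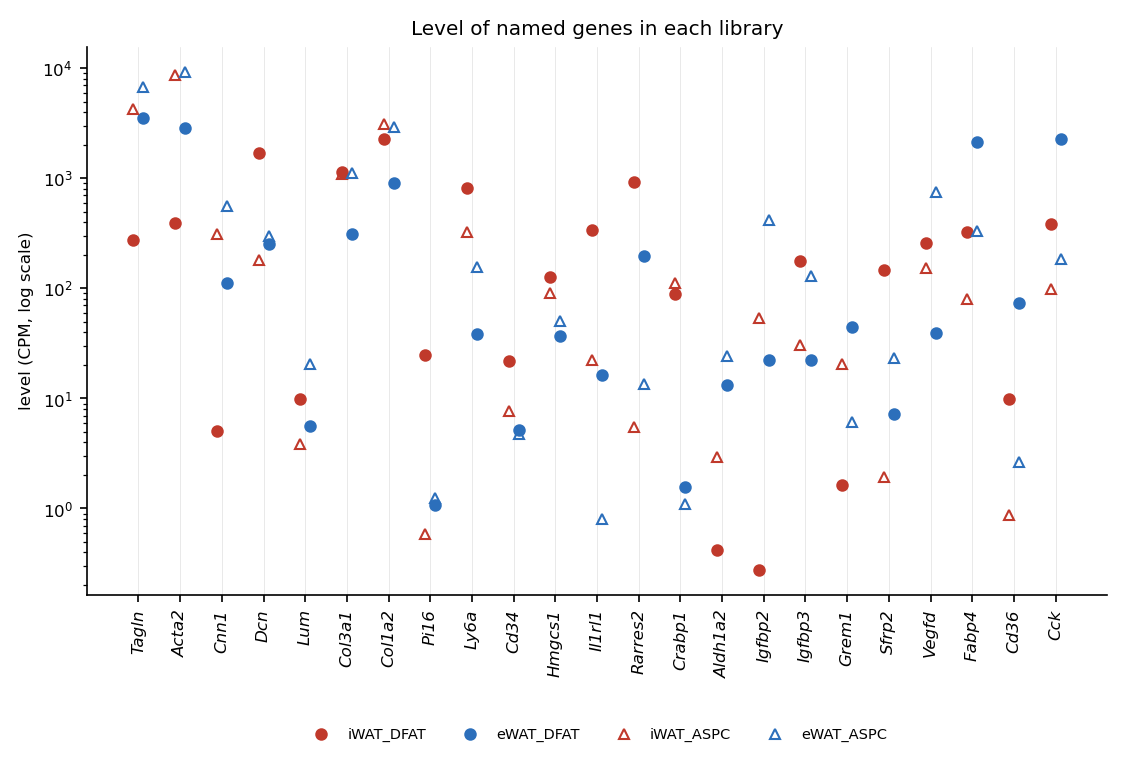
Levels of 23 named genes in CPM on a log axis, filled circles for the DFAT libraries and open triangles for the cultured ASPC libraries, red for iWAT and blue for eWAT, with 1 library a point and no error bar. The DFAT pairs are far apart for *Tagln* (277 and 3571 CPM) and *Crabp1* (88.3 and 1.56 CPM), and the 2 ASPC triangles lie close together for *Acta2* and *Col3a1* and far apart for *Crabp1*.

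Acute phase and antimicrobial genes outside the NF-κB list lay mostly on the iWAT side. Of 16 at level, 12 were at least 2-fold higher in iWAT_DFAT and 1 in eWAT_DFAT, with a median of 2.02, or 1.53 over the 11 at level in both. The list was not limited to secreted proteins. Its 2 largest ratios were those of *Serpina3n* (4.85) and *Pi16* (4.51), given above and counted among the 12. *Il1rl1*, the receptor of interleukin 33 (ST2), was at 337 and 16.5 CPM, a log2 ratio of 4.35 (4.30 to 4.40), and a UMI of it was found in 51.3% and 5.52% of thinned cells, against 26.9% and 1.25% of endothelial-marker cells. The metalloreductase *Steap4* was at 50.5 and 6.3 CPM (3.00). *Hp*, haptoglobin, was the one gene on the eWAT side, at 159 and 357 CPM, a log2 ratio of -1.17 (-1.19 to -1.15), and *Slpi*, an inhibitor of neutrophil elastase, was at 93.6 and 172 CPM (-0.88).

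Of 25 complement genes 11 were at level, with 7 at least 2-fold higher in iWAT_DFAT and 2 in eWAT_DFAT and a median of 1.64, or 1.88 over the 7 at level in both. The median hung on the minimum level, at 0.63 with no minimum, 0.77 at 1 CPM and 2.26 at 20 CPM. The proteases that start the classical pathway were higher in iWAT_DFAT, *C1s1* at 94.1 and 14.8 CPM, a log2 ratio of 2.67 (2.61 to 2.72) and *C1ra* at 64.1 and 10.8 CPM, a log2 ratio of 2.57 (2.50 to 2.64), together with their substrate *C4b* at 19.4 and 2.71 CPM (2.84). *Cd59a*, which guards cells against the membrane attack complex, was at 2.22 and 15.9 CPM (-2.84), and *Cfd*, adipsin, which adipocytes secrete, was at 3.3 and 21.1 CPM (-2.68). These 2 genes of the eWAT side were at level through eWAT_DFAT alone, and *C4b* through iWAT_DFAT alone. The interleukin receptor and JAK-STAT list had 12 of 19 genes on the iWAT side and 3 on the eWAT side. *Il1r1*, the signaling receptor of interleukin 1, was at 881 and 183 CPM, a log2 ratio of 2.27 (2.25 to 2.28), the decoy *Il1r2* at 23.8 and 3.8 CPM (2.65) and *Il13ra1* at 45.3 and 10.1 CPM (2.16). The feedback inhibitors lay on opposite sides, *Socs3* at 40.0 and 9.37 CPM (2.09) and *Socs2* at 23.3 and 90.3 CPM (-1.96). The 2 other genes on the eWAT side were the cytokines *Il11* at 14.3 and 49.5 CPM (-1.79) and *Tslp* at 14.6 and 31.1 CPM (-1.09).

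Of 56 interferon-response genes written, 37 were at level, and 23 were at least 2-fold higher in iWAT_DFAT and 0 in eWAT_DFAT. The median was 1.36, or 1.0 over the 26 at level in both libraries. *Ifit1*, which binds viral RNA ends, was at 19.6 and 2.79 CPM, a log2 ratio of 2.81 (2.68 to 2.95), *Ifitm1*, which hinders viral entry, at 20.4 and 1.6 CPM (3.68) and the immunity-related GTPase *Iigp1* at 35.1 and 6.66 CPM, a log2 ratio of 2.40 (2.31 to 2.49). *Rtp4* and *Gbp3* were at 16.8 and 3.36 CPM (2.33) and 9.37 and 1.94 CPM (2.27). *Bst2*, tetherin, was the gene furthest the other way, at 85.5 and 132 CPM (-0.63). Levels were low for most, and at a minimum of 20 CPM 5 members were past 2-fold and the median was 0.88. Interferon-list UMIs per thinned cell had medians of 20 and 9, and 87.2% of iWAT_DFAT cells lay above the eWAT_DFAT median. In antigen presentation 4 of 18 genes were past 2-fold, all on the iWAT side, among them *Tap1* at 13 and 4.94 CPM (1.40) and *Psmb8* at 34.9 and 15.1 CPM (1.21), while *B2m* was at 274 and 280.0 CPM (-0.03).

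The interferon-stimulated response element was searched as GAAA, any 2 bases and GAAA again, on both strands, so TTTC, 2 bases and TTTC is the same element read from the other side. The stretches shown belong to 4 genes of the list that were at least 2-fold higher in iWAT_DFAT and carry it, from RefSeq promoters of GRCm38.p6, written 5′ to 3′ along the strand of the gene with the element in capitals. Other copies, overlapping or apart from it, stand in lower case.
Ifit1 (chr19:34640779-34640838, plus strand): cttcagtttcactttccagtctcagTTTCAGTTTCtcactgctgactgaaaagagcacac
Isg15 (chr4:156200856-156200915, minus strand): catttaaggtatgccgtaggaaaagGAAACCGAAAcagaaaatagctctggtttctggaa
Cxcl10 (chr5:92349068-92349127, minus strand): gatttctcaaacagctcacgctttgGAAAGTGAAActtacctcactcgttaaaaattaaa
Gbp3 (chr3:142559974-142560033, plus strand): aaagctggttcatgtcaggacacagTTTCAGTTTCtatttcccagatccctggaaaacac
The element lay in 3.99% of 27025 promoters and in 3.69% of those of the genes considered. It lay in 16 of the 28 listed genes with a promoter (57.1%), in 10 of 16 at least 2-fold higher in iWAT_DFAT (62.5%) and in 6 of 12 under 2-fold (50%). *Isg15*, a ubiquitin-like modifier, was at 35.7 and 17 CPM (1.07), and *Cxcl10*, which draws T cells, was at 12.9 and 3.25 CPM (1.99). List members past and under 2-fold held it in like shares, and its part in the levels was not tested.

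Cholesterol synthesis lay on the iWAT side almost throughout. Of 21 genes at level 14 were at least 2-fold higher in iWAT_DFAT and 0 in eWAT_DFAT, with a median of 1.12 and summed levels of 1271 and 636 CPM. *Hmgcs1*, which makes HMG-CoA, was at 126 and 36.7 CPM, a log2 ratio of 1.78 (1.74 to 1.82), and *Lss*, which closes the sterol ring, at 12.6 and 4.19 CPM (1.59). *Stard4*, a carrier of sterol between membranes, was at 35.6 and 13.1 CPM (1.45), and *Sc5d* was the single gene below 0, at 28.8 and 32 CPM (-0.15). *Abca1*, which exports cholesterol and is not in that list, was at 62.8 and 15.3 CPM (2.04). With cells of 5 or more cycle UMIs left out, 9 genes of the list passed 2-fold. The sterol response element TCACNCCAC was searched on both strands and lay in 1.44% of promoters and in 1 of the 15 listed genes with a RefSeq promoter, *Hmgcs1*, shown in GRCm38.p6 with the element in capitals.
Hmgcs1 (chr13:119690189-119690247, plus strand): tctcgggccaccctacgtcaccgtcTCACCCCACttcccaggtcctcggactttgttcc

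Genes of the fat-storing state that passed 2-fold lay on both sides. Summed over the whole mature adipocyte list the level was 1591 CPM in iWAT_DFAT and 3388 CPM in eWAT_DFAT, of which *Fabp4* alone was 327 and 2132 CPM. Of 27 mature adipocyte genes at level 7 were at least 2-fold higher in eWAT_DFAT and 3 in iWAT_DFAT. *Fabp4*, the fatty acid carrier of adipocytes and capillary endothelium (ENSMUSG00000062515, chromosome 3, 10204088 to 10208576), was at 327 and 2132 CPM, a log2 ratio of -2.71 (-2.72 to -2.69). *Cd36*, the fatty acid transporter, was at 9.91 and 74.2 CPM, a log2 ratio of -2.91 (-2.98 to -2.83), and *Car3*, carbonic anhydrase 3, at 4.06 and 29.7 CPM (-2.87). *Adipoq*, adiponectin, was at 1.23 and 11.3 CPM (-3.21). The 3 on the iWAT side were *Tmem26*, known from beige fat, at 15.2 and 2.31 CPM (2.72), *Sncg* at 28 and 7.77 CPM (1.85) and the elongase *Elovl6* at 88.9 and 43.6 CPM (1.03). The median was -0.07, or 0.27 over the 21 at level in both, and it went to -1.43 with 19 genes past 2-fold when cells with 5 or more cycle UMIs were left out. Without cells carrying markers of other types, *Fabp4* was at a log2 ratio of -2.73 and *Cd36* at -2.94. Without cells of 5 or more cycle UMIs, *Fabp4* was at -3.57 and *Cd36* at -3.38. In the lipid droplet and uptake list 6 of 25 genes were at least 2-fold higher in iWAT_DFAT, among them the desaturase *Scd2* at 223 and 91.8 CPM (1.28), and 1 in eWAT_DFAT, the lipolysis inhibitor *G0s2* at 12.9 and 40.2 CPM (-1.64).

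The adipocyte RNA was unevenly held. A *Fabp4* UMI was found in 33.3% of thinned iWAT_DFAT cells and 79.1% of thinned eWAT_DFAT cells, both under the 73.1% and 92.5% of endothelial-marker cells, which are known to express it. The tenth of eWAT_DFAT cells with the most *Fabp4* held 73.5% of its UMIs. A separate list of 10 adipocyte marker genes had 6 at level, 4 of them through 1 library alone, with 4 at least 2-fold higher in eWAT_DFAT and 0 in iWAT_DFAT, a median of -2.11 (-0.75 over the 2 at level in both) and summed levels of 32.8 and 117 CPM. These markers left 92.4% of thinned iWAT_DFAT cells and 89.8% of thinned eWAT_DFAT cells with no UMI of them. In eWAT_DFAT *Tagln* was found in 86.1% of cells with *Fabp4* and in 93.8% of cells without. *Cck*, cholecystokinin, a gut and brain peptide, was at 387 and 2266 CPM, a log2 ratio of -2.55 (-2.56 to -2.54), and a UMI of it was found in 37.0% and 73.7% of thinned cells, against 11.5% and 30.0% of endothelial-marker cells.

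The regulators of adipogenesis went to the iWAT side in 10 of 25 genes and to the eWAT side in 2, with a median of 0.90, or 0.73 over the 20 at level in both. The 3 nuclear receptors of the NR4A family, which stimuli induce within the hour in many cells, were all among the 10, *Nr4a1* at 227 and 24.7 CPM, a log2 ratio of 3.20 (3.16 to 3.25), *Nr4a2* at 59.7 and 17.3 CPM (1.79) and *Nr4a3* at 36.6 and 4.42 CPM (3.05). *Ebf3*, an early B-cell factor, was at 26.7 and 4.1 CPM (2.70) and *Stat5a* at 16.9 and 3.91 CPM (2.11). *Pparg*, the master regulator of fat cell formation, was at 44.8 and 71.1 CPM, a log2 ratio of -0.67 (-0.71 to -0.63), and the 2 on the eWAT side were *Gata2* at 7.43 and 17.5 CPM (-1.24) and *Klf5* at 3.33 and 7.7 CPM (-1.21). *Mrap*, the melanocortin receptor accessory protein that adipocytes use for corticotropin sensing, is outside the regulator list. It belongs with the mature adipocyte genes above, whose lowest log2 ratio was -4.94. *Mrap* was among the largest ratios of eWAT_DFAT, at 2.18 and 66.6 CPM, a log2 ratio of -4.94 (-5.08 to -4.79), and was at level through eWAT_DFAT alone.

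Energy and redox lists differed in size and side. Of 76 nuclear genes of oxidative phosphorylation 0 passed 2-fold in either direction, with a median of -0.19 and *Cycs*, cytochrome c, furthest out at 235 and 458 CPM (-0.96). The 13 mitochondrially encoded RNAs lay between 0.09 and 1.12, with a median of 0.62 and summed levels of 31827 and 20301 CPM, so the 2 sets, whose proteins share complexes, had medians of opposite sign. *mt-Nd3* was the single one past 2-fold, at 518 and 238 CPM (1.12). Of 45 glutathione and NRF2 genes 6 were at least 2-fold higher in eWAT_DFAT and 3 in iWAT_DFAT, and 16 passed 2-fold without cells of 5 or more cycle UMIs. *Hmox1*, heme oxygenase, was at 119 and 715 CPM, a log2 ratio of -2.59 (-2.61 to -2.57) and *Gclm*, the regulatory subunit of glutathione synthesis, at 240.0 and 684 CPM, a log2 ratio of -1.51 (-1.52 to -1.49), both NRF2 targets and both higher in eWAT_DFAT. The extracellular superoxide dismutase *Sod3* lay on the other side at 101 and 13.4 CPM, a log2 ratio of 2.92 (2.86 to 2.98), with *Gstt1* at 20.9 and 3.34 CPM (2.65). In glycolysis and hypoxia 9 of 36 genes were at least 2-fold higher in iWAT_DFAT and 0 in eWAT_DFAT, among them the lactate carrier *Slc16a1* at 68.3 and 15.1 CPM, a log2 ratio of 2.18 (2.12 to 2.24) and the hypoxia targets *Ndrg1* and *Egln1* at 9.19 and 2.3 CPM (2.00) and 58 and 21.7 CPM (1.42).

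Growth genes mostly stayed under 2-fold. Of 51 ribosome biogenesis genes 0 passed 2-fold, with a median of -0.41 and summed levels of 6182 and 8108 CPM, and 6 did so without cells of 5 or more cycle UMIs. *Mrto4* and *Nop16*, nucleolar assembly factors, were at 85.8 and 166 CPM (-0.96) and 32.3 and 62.4 CPM (-0.95), while *Myc* was at 43.2 and 28.7 CPM (0.59). Thinned cells held a median of 28 ribosome biogenesis UMIs in iWAT_DFAT and 39 in eWAT_DFAT, and 80.1% of eWAT_DFAT cells lay above the iWAT_DFAT median. Among 82 ribosomal protein genes *Rpl39l* alone passed 2-fold, at 54.7 and 0.431 CPM, a log2 ratio of 6.99 (6.67 to 7.32). In ASPCs it was at 76.9 and 0.233 CPM. Its reads may be shared with the near-identical *Rpl39*, and the part of this in its ratio was not tested. Of 44 S phase and 54 mitosis genes 0 passed 2-fold, with medians of 0.01 and 0.08, *Tyms* at 74.7 and 129 CPM (-0.79) and *Mki67* at 152 and 101 CPM (0.59). Yet thinned cells held a median of 6 mitosis UMIs in iWAT_DFAT and 10 in eWAT_DFAT, with 41 and 40 at the 90th percentile. Of 38 cell cycle inhibitor, cyclin and p53 genes 3 were at least 2-fold higher in iWAT_DFAT, among them the death receptor *Fas* at 73.5 and 26.4 CPM (1.48), and 1 in eWAT_DFAT, *Gadd45g* at 60.7 and 130.0 CPM (-1.10). Of 39 ATF4 and endoplasmic reticulum stress genes 2 and 1 were past 2-fold, *Atf3* at 22.9 and 8.84 CPM (1.37), *Ddit4* at 42.9 and 21.3 CPM (1.01) and the amino acid carrier *Slc7a5* at 10.6 and 23.1 CPM (-1.12).

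Of 37 heat shock and early response genes 9 were at least 2-fold higher in iWAT_DFAT, 1 in eWAT_DFAT and 27 were under 2-fold, with a median of 0.37. *Fos*, a subunit of AP-1 that serum and handling induce within minutes, was at 493 and 58.4 CPM, a log2 ratio of 3.08 (3.05 to 3.11), *Fosb* at 188 and 18 CPM, a log2 ratio of 3.39 (3.34 to 3.44), and *Zfp36*, which destabilizes cytokine RNAs, at 342 and 55.4 CPM, a log2 ratio of 2.62 (2.59 to 2.65). The phosphatase *Dusp4* was the gene on the eWAT side, at 10.3 and 43.7 CPM (-2.08), and the mitochondrial chaperone *Hspd1* was at 445 and 738 CPM (-0.73). *Btg2*, which halts division and is a member of the cell cycle inhibitor list, was at 506 and 114 CPM, a log2 ratio of 2.15 (2.13 to 2.17). The time between detaching the cells and capture is not given for either library, and its part in these genes was not tested.

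Sets of other kinds are given by single genes. The 2 ion channels with the largest ratios, the sodium channel relative *Scn7a* and the calcium channel *Cacna1g*, were at 17.7 and 1.63 CPM (3.44) and 27.8 and 6.96 CPM (2.00), and 10 of 29 channel and transporter genes were at least 2-fold higher in iWAT_DFAT against 3 in eWAT_DFAT, with 7 of the 29 at level through 1 library alone and a median of 0.27 over the other 22. The maternally expressed long RNAs *Meg3* and *Rian*, neighbors in an imprinted cluster, were at 254 and 107 CPM (1.25) and 69.3 and 30.1 CPM (1.20). They were the 2 of 16 imprinted genes past 2-fold, a share close to the 10.9% of all genes considered. Nuclear *Neat1* was at 746 and 308 CPM (1.28) and *Malat1* at 8820 and 7060 CPM (0.32). *Dnm3os*, the host of a microRNA pair, was at 32.6 and 7.07 CPM (2.21). The proliferins, prolactin relatives made by growing mouse fibroblasts, lay on the eWAT side, with *Prl2c3* at 96.6 and 261 CPM (-1.44) and *Prl2c2* at 184 and 332 CPM (-0.86), though these copies are nearly identical and their reads may be split.

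The same depot ratio was read in the cultured ASPC libraries of the study, grown from the stromal fraction of the same 2 pads, with 7424 cells in iWAT_ASPC and 6745 in eWAT_ASPC. In those 267 of the genes (2.67%) were at least 2-fold higher in iWAT_ASPC and 329 (3.29%) in eWAT_ASPC. Of the 753 genes on the iWAT side in DFAT cells, 117 (15.5%) were at least 2-fold on the same side in ASPCs, 79 (10.5%) at least 2-fold on the other and 557 (74.0%) under 2-fold. Of the 334 genes on the eWAT side, 109 (32.6%), 25 (7.49%) and 200 (59.9%) fell in those classes. The file of iWAT_ASPC names another version of Cell Ranger than the other 3, so its ratios carry a processing difference whose part was not tested. Cells with 3 or more markers of another type made up 3.35% of iWAT_ASPC (65 endothelial, 3 mesothelial, 35 immune and 148 glial by marker). In eWAT_ASPC they made up 11.3% (175, 529, 81 and 6), and their part in the ASPC ratios was not tested.

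List medians were also set beside those of the ASPC libraries. The contractile median was -1.21 in DFAT cells and -0.57 in ASPCs, where *Tagln* was at 4241 and 6744 CPM and *Acta2* at 8763 and 9297 CPM. *Des*, low in iWAT_DFAT, was also low in iWAT_ASPC, at 4.21 and 259 CPM in ASPCs. The interferon median was 1.36 in DFAT cells and -0.77 in ASPCs, and the complement medians were 1.64 and -0.89. Cholesterol synthesis kept its side, with medians of 1.12 and 0.66, and *Hmgcs1* at 91.4 and 50.8 CPM in ASPCs. Single genes also kept theirs, *Crabp1* at 112 and 1.11 CPM, *Igfbp2* at 54.3 and 417 CPM and *Il1rl1* at 22.3 and 0.8 CPM in ASPCs. Others turned: *Sfrp2* was at 1.93 and 23.2 CPM and *Igfbp3* at 30.9 and 130.0 CPM, both lower in iWAT_ASPC than in eWAT_ASPC.

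**Figure D4:**
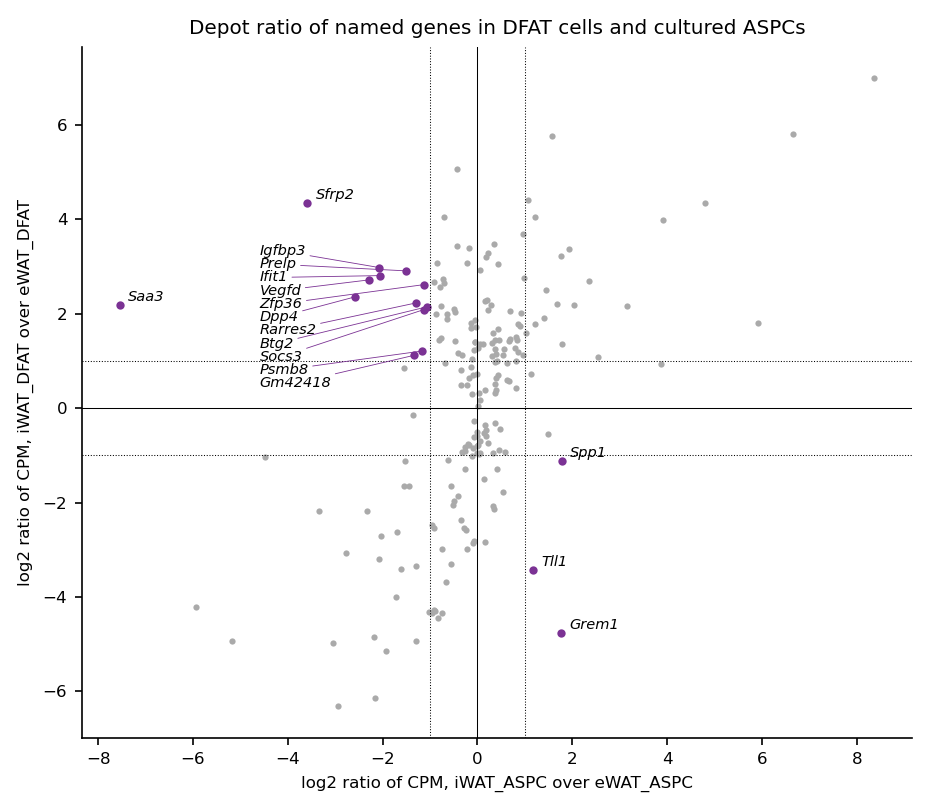
Each point is 1 of 207 named genes, those of 256 at a mean of 5 CPM or more over the 2 ASPC libraries, with the log2 ratio of iWAT_ASPC over eWAT_ASPC across and that of iWAT_DFAT over eWAT_DFAT up. Purple points are the 16 genes at least 2-fold in opposite directions, *Saa3*, a gene of the NF-κB list, and *Sfrp2* furthest to the upper left and *Grem1* at the lower right, and 42 genes are at least 2-fold on the same side.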

How the data were processed

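Droplet single-cell RNA libraries (10x 3′ v3.1) of the 2 DFAT and 2 ASPC cultures were deposited by the authors as unnormalized UMI counts per gene and barcode, 32285 genes, before any cell filter. The submitters' processing notes name Cell Ranger 7.0.0 and mm10, while the file headers name version 7.1.0 in 3 files and version 4 in that of iWAT_ASPC, and the methods state that intronic reads were counted. Total UMIs were 211396227 in iWAT_DFAT and 219136195 in eWAT_DFAT, of which 86.9% and 84.7% lay in the cells kept. The methods set 500 UMIs as the lower cell limit, and 5000 was used here.

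Counts were summed over cells, scaled to CPM and compared as log2 ratios with exact conditional binomial 95% intervals with scipy 1.17.1, pandas 2.3.3 and numpy 2.4.6 under Python 3.11.15. A mean of 5 CPM over both DFAT libraries was required, and a gene was called at 2-fold. That mean can be reached through 1 library alone, so a gene under 5 CPM in the other library was counted where it was high. With 1 library a group no test was made. On simulated counts with 200 changed genes, 95.0% of the intervals held the true ratio. Those counts were drawn with counting error alone, so this checks the calculation and cannot speak to variation between cultures or cells. Y-linked *Uty*, *Kdm5d*, *Ddx3y* and *Eif2s3y* were under 2-fold. Scrublet (in scanpy 1.11.5) called 0% of cells as doublets, which is taken as not having worked, so an alternative left out the 466 and 334 cells with the highest scores. Shares of cells were taken after thinning each cell to 5000 UMIs, which left out no cell.

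The members and the gene lists were chosen with earlier results of these data known. Named genes were the 20 largest ratios a side at 20 CPM or more, the 10 largest CPM differences a side, and in each list the 5 largest ratios and up to 3 against its median, from which the text draws. Genes named outside this rule, for their role in a pathway (*Myl9*, *Col1a1*, *Col6a1*, *Col6a2*, *Col4a1*, *Col4a2*, *Cyp26b1*, *Rarg*, *Rxra*, *Aldh1a1*, *Acta1*, *Ldb3*, *Cnn2*, *Isg15* and *Cxcl10*), were chosen after their values were seen. The 15 alternatives were for the cells, the scaling (TMM of edgeR 4.0.16, size factors of DESeq2 1.42.0, R 4.3.3) and the minimum level, and 1 of them, which left out cells with 15 or more cycle UMIs, was chosen after seeing the data. Gene positions are from GENCODE M21 and promoters from RefSeq, GRCm38.p6. Motif searches covered 27025 genes with a promoter.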

Additional observations from a re-analysis of the deposited data

Results flagged for a closer look

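Among 256 named genes, of which 207 were at a mean of 5 CPM or more over the 2 ASPC libraries, 16 of those 207 had depot ratios of at least 2-fold in opposite directions in DFAT cells and in cultured ASPCs. Of all genes past 2-fold in DFAT cells, 79 of 753 on the iWAT side (10.5%) and 25 of 334 on the eWAT side (7.49%) did so. No minimum level in the ASPC libraries was asked of those. The difference between the 2 contrasts was not tested, since each rests on 1 library a group, and the file of iWAT_ASPC names another version of Cell Ranger than the other 3. Cells with markers of another type made up 3.35% of iWAT_ASPC and 11.3% of eWAT_ASPC, and their part was not tested.

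Of the 16 named genes, 13 were higher in iWAT_DFAT and lower in iWAT_ASPC than in the eWAT library of the same cell type. Secreted and matrix genes were *Sfrp2*, with log2 ratios of 4.35 in DFAT cells and -3.59 in ASPCs, *Igfbp3* with 2.98 and -2.07, *Prelp* with 2.91 and -1.50, *Vegfd* with 2.72 and -2.28, *Rarres2* with 2.23 and -1.30 and the peptidase *Dpp4* with 2.36 and -2.58. *Saa3*, an acute phase apolipoprotein on the NF-κB list, had 2.19 and -7.55, with 0.431 and 80.9 CPM in iWAT_ASPC and eWAT_ASPC. *Ifit1* of the interferon list had 2.81 and -2.05, and *Psmb8* of the antigen presentation list had 1.21 and -1.18. The quickly induced genes were *Zfp36* with 2.62 and -1.12, *Btg2* with 2.15 and -1.06 and *Socs3* with 2.09 and -1.13. *Gm42418*, which overlaps ribosomal RNA sequence, had 1.12 and -1.34. In droplets of 1 to 100 UMIs it was at 49796 CPM in iWAT_DFAT and 46946 CPM in eWAT_DFAT, against 2706 and 1243 CPM in cells. The part of free RNA in its ratios was not tested.

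The 3 genes of the reverse kind were *Grem1*, with -4.76 in DFAT cells and 1.77 in ASPCs, *Tll1* with -3.44 and 1.17 and *Spp1* with -1.12 and 1.78.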

How the results depend on the processing

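No paired analysis was possible because each group has 1 library. The 2 gene counts, 43 list counts and 43 list medians were recomputed under 15 alternatives, and the ratios of 59 named genes under the 12 of them that do not change the minimum level. *Gm42418* had no ratio with 10% free RNA subtracted, and no ratio that could be computed changed direction. Of the ratios computed, 427 stayed within their counting interval and 280 moved past it on the same side. With cells of 5 or more cycle UMIs left out, *Npnt* went from -4.32 to -5.28 and *Tagln* from -3.69 to -4.46. In the same setting *Chl1* went from 5.52 to 4.43 and *Il1rl1* from 4.35 to 3.67. TMM and DESeq2 scaling gave 742 and 337, and 731 and 342, genes higher in iWAT_DFAT and eWAT_DFAT, against 753 and 334.

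The minimum level moved most counts, by changing which genes were tested. At 1 CPM 1150 and 684 genes were past 2-fold, at 20 CPM 438 and 163, and with no minimum 2774 and 2993, where the majority turned to the eWAT side, with 48.1% of called genes on the iWAT side against 69.3%. Members past 2-fold in either library at 1 CPM numbered 17 for integrins, 19 for PDGF, EGF, HGF and VEGF, 14 for WNT, 18 for axon guidance, 1 for ribosome biogenesis and 21 for ion channels. At 20 CPM they numbered 5 for interferon response, complement, integrins and PDGF, 1 for MHC class I, prostaglandin and ATF4 stress, 3 for basement membrane, IGF and ion channels, 2 for FGF, 4 for mature adipocyte, 6 for proteases and adipogenic regulators and 7 for retinoid and progenitor surface genes, and the basement membrane median went from -0.21 to 0.13. With no minimum they numbered 40 for interferon response, 21 for acute phase and PDGF, 14 for basement membrane, 20 for proteoglycans and integrins, 8 for IGF, 10 for FGF, 19 for TGF-β and mature adipocyte, 22 for WNT, 7 for hedgehog and Notch, 24 for axon guidance, 2 for ribosome biogenesis, 6 for proliferins and imprinted genes, 32 for ion channels and 5 for nuclear RNAs, and the PDGF and TGF-β medians went from 0.15 to -0.01 and from 0.24 to -0.04.

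Without cells of 5 or more cycle UMIs (76.7% and 88.0% of cells) 536 genes were on the eWAT side, and members past 2-fold numbered 14 for integrins, 12 for axon guidance, 19 for mature adipocyte, 11 for lipid droplet, 9 for cholesterol synthesis, 2 for oxidative phosphorylation and mitosis, 16 for glutathione, 6 for ribosome biogenesis, 1 for S phase and 5 for imprinted genes. Of the genes called with all cells, 679 of 753 and 297 of 334 were still past 2-fold. Without the 45.5% and 56.7% of cells with 15 or more, the counts were 10 for axon guidance, 1 for oxidative phosphorylation and mitosis, 14 for glutathione, 4 for ribosome biogenesis and 5 for imprinted genes. Weighting cells equally gave 1 for oxidative phosphorylation, 3 for ribosome biogenesis and 4 for imprinted genes, and a prostaglandin median of 0.04 against -0.15. Thinning gave 1, 2 and 4 for those 3 lists, and leaving out cells of other types gave 4 for imprinted genes. The cause of these shifts was not tested. At 5 CPM depth limits little, but the missing replicates limit every ratio.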

Other observations

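Among genes at 5 CPM or more, 8 runs of 4 or more neighbors along a chromosome were each at least 2-fold higher in iWAT_DFAT at every gene, and 0 such runs were found on the eWAT side, on which fewer genes were called. On chromosome 1, from 40074079 to 40465415, the interleukin 1 receptor cluster *Il1r2*, *Il1r1*, *Il1rl2* and *Il1rl1* had log2 ratios of 2.65, 2.27, 1.93 and 4.35. On chromosome 6, from 124493113 to 124704418, the complement proteases *C1rl*, *C1ra* and *C1s1* stood beside *Lpcat3*, with 1.38, 2.57, 2.67 and 1.04. On chromosome 9 the glutamate receptor gene *Gria4* and the caspase genes *Casp1*, *Casp4* and *Casp12* had 1.80, 1.65, 1.59 and 2.15, and on chromosome 7 the antiviral *Trim12a*, *Trim12c*, *Trim30a* and *Trim30d*, which are similar copies between which reads may be split, had 1.02, 1.33, 1.98 and 1.96. On chromosome 2 *Dpp4*, *Fap*, *Ifih1* and *Fign* had 2.36, 1.17, 1.31 and 1.02. Of the other 3 runs, those on chromosomes 3 and 15 held *Ccnl1* to *Mlf1* and *Cpne8* to *Slc2a13*.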
